A study of Mus musculus with 17 samples.

Results

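The data described here are the transcript levels of quiescent NIH 3T3, a fibroblast line from mouse embryos, 1 h after platelet-derived growth factor (PDGF) was added on each of 4 backgrounds. The 8 arrays of the Src experiment, of 17 arrays in the series, were used. They were chosen by their labels: each array with PDGF at 25 ng/ml was paired with the array of the same background without PDGF. The backgrounds were vehicle, SU6656 at 2 µM, an inhibitor of Src family kinases, UO126 at 10 µM, an inhibitor of the ERK-activating kinase MEK, and LY294002 at 7.5 µM, an inhibitor of PI3K. All 8 arrays came from quiescent cells, and each of the 8 conditions was measured on 1 array. How quiescence was reached, and how long the inhibitors were present, is not given in the sources used here. The other 9 arrays are of a smaller design and hold a MEK experiment and a partial repeat, and they enter only where the same genes are set beside each other.

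PDGF is a mitogen for fibroblasts that binds receptor tyrosine kinases at the cell surface. The activated receptor recruits Src family kinases, PI3K and the Ras pathway that leads to MEK and ERK. Within the hour such signals switch on immediate early genes, whose transcription needs no new protein. Many of these encode transcription factors, and others encode phosphatases, adaptors and secreted factors that damp or spread the signal.

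The values are deposited intensities on a linear scale, called signals here and given in the deposited units. Array medians were 189.6 to 198.4 units without PDGF and 174.7 to 184.6 with it, so every array with PDGF had a lower median than every array without. Spearman's rank correlation between arrays over the probe sets was 0.932 to 0.964. Of 15 fibroblast markers on the array 14 were bright enough to be tested, and their summed signal was 224050 to 259430 without PDGF and 218513 to 248972 with it. None of them passed the threshold. Markers of other cell types were dimmer in sum and mixed. The leukocyte gene Ptprc read at most 32.8 units, the endothelial gene Vwf at most 4.9 and the epithelial gene Epcam at most 20.2. Other listed members were well above that, with Krt14 (epithelial) at 1344.3 to 1788.7 over all arrays, Lpl (adipocyte) at 1095.3 to 1791.7 and Csf1r (macrophage) at 314.3 to 454.7. The summed leukocyte markers were 1836.3 to 2312.2 without PDGF and 1636.1 to 1966.3 with it. The ratio of the 3′ to the 5′ control probe set for Gapdh, a measure of RNA integrity, was 0.739 to 0.787 on all 8 arrays. For actin it was 1.17 to 1.4. It was lower with PDGF in the vehicle (1.37 and 1.23), SU6656 (1.4 and 1.28) and LY294002 (1.29 and 1.17) pairs, and about equal with UO126 (1.29 and 1.3), and its part in the results was not tested.

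The test asked whether a transcript differed with PDGF over the 4 pairs, set against the spread among pairs. That spread came partly from the transcript itself and partly from other probe sets of like signal. The former gave 3 degrees of freedom and the latter 6.41. The effect is a log2 difference of signals after 36.3 units, the 20th percentile of the table, had been added to each, so that 1 unit of log2 is a 2-fold change and changes of dim genes are understated. It was fitted with limma with the pair as a block, and a gene was said to rise or fall where the Benjamini-Hochberg adjusted p was under 0.05. The labels do not mention separate cultures, so a p-value here sets an effect against the variation among these 8 arrays alone. That variation may be technical, and it includes any difference in PDGF response between the backgrounds.

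PDGF raised 396 of 15838 probe sets (2.5%) and lowered 129 (0.814%). Taking each named gene at its brightest probe set, 228 of 9219 genes rose (2.47%) and 76 fell (0.824%), with a median effect of 0.82 for the former and −0.52 for the latter, against −0.05 over all genes. The mean change was at least 2-fold for 89 of the genes that rose and for 9 of those that fell, and at least 2-fold in every pair for 45 and 2. The signals with and without PDGF did not overlap for 164 of the 228 and for 48 of the 76. Over all 9219 genes, called or not, every array with PDGF was above every array without for 2.83%, and below for 5.63%. These overlaps were read on the deposited signals before quantile normalisation, and the array medians of those signals were all lower with PDGF. The balance of rises and falls depended on scaling: when arrays were scaled to a common median in place of quantile normalisation, 578 probe sets rose and 65 fell, a higher share of rises. Without the array treated with vehicle alone, 225 probe sets rose and 37 fell.

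**Figure D1:**
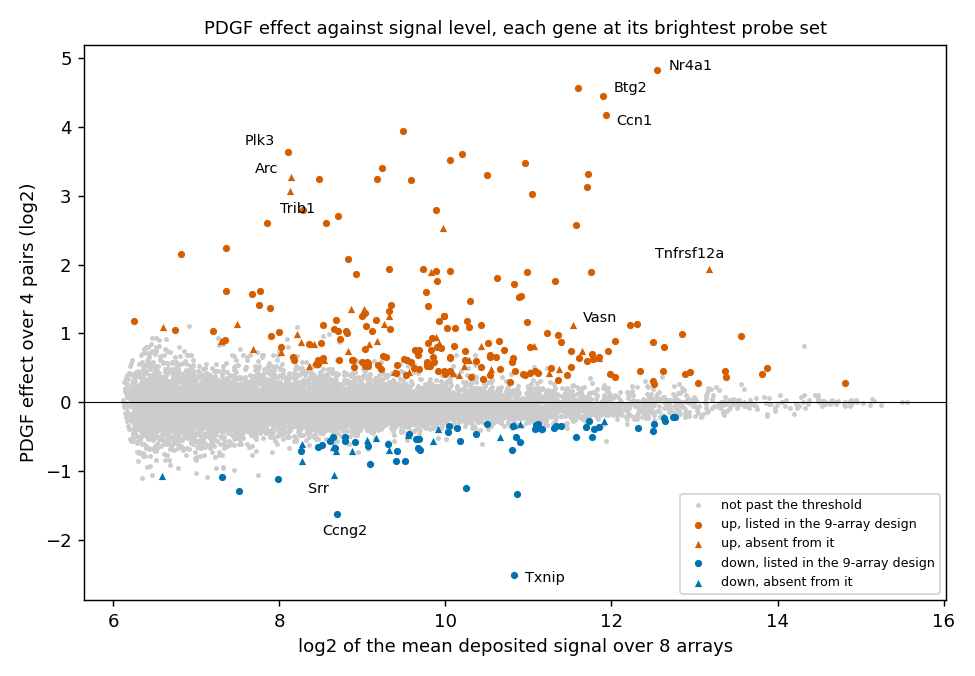
PDGF effect over 4 pairs (log2, vertical axis) against the log2 of the mean deposited signal over 8 arrays (horizontal axis) for 9219 genes, each at its brightest probe set. Orange marks the 228 genes that rose and blue the 76 that fell; triangles are genes absent from the smaller array design. The rises reach 4.83, the falls −2.51.

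Immediate early transcription factors moved most. Of 40 measured members of that list, 29 rose and none fell, with a median effect of 1.02. Nr4a1, an orphan nuclear receptor, had signals of 373.3, 260.3, 303.9 and 698.5 without PDGF on vehicle, SU6656, UO126 and LY294002, and of 11853, 11743.8, 9891 and 12985.6 with it. Every array with PDGF was far above every array without, and the 4 levels with PDGF lay close together. The effect was 4.83 (SE 0.155, limma adjusted p = 2.83e-07), a 28.4-fold rise. Btg2, an antiproliferative cofactor, went from 315.6, 221.1, 305.1 and 395.6 to 8662.7, 6219.3, 6959.2 and 7489.7 (4.45, SE 0.103). The zinc finger factor Egr2 read 81.5, 70.3, 9.4 and 86.2 without PDGF and 1421.6, 1038.1, 1140.4 and 1919.3 with it (3.94, SE 0.201). For these 2 genes too the groups were clear of each other. Fosb, a partner of Jun proteins in AP-1, read 156.2, 157.3, 134.2 and 77.4 without PDGF and 2521, 2614.9, 738.6 and 2132.3 with it (3.52, SE 0.255). Its lowest stimulated signal was on the UO126 array. Egr1 (3.31), Atf3 (3.30), Fosl1 (3.23), Junb (3.03), Fos (2.60), Maff (2.16), Nfil3 (1.86), Bhlhe40 (1.72) and Myc (1.60) also rose. Srf, the factor that binds serum response elements, rose by 0.84.

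Regulators that damp receptor and MAPK signalling were the next group, with 11 of 22 up and 1 down (median 0.52). Errfi1, an inhibitor of EGF receptor family kinases, read 216.4, 195.4, 158 and 257.3 without PDGF and 7900.8, 4527.7, 3109.6 and 8410.1 with it. The effect was 4.57 (SE 0.147, adjusted p = 2.83e-07), and its stimulated signals on SU6656 and UO126 were the 2 lowest. Dusp6, a phosphatase that inactivates ERK, went from 63.5, 75.6, 17.3 and 150.6 to 1397.1, 685.5, 593.4 and 1834.6 (3.40, SE 0.179). Both unstimulated and stimulated signals were lowest on UO126, and the groups did not overlap. Phlda1 (2.71), Spry2 (2.53), Dusp1 (1.18), Spred1 (0.88) and the cytokine signalling suppressors Socs3 (1.93) and Socs1 (1.37) rose as well. Rgs2, a regulator of G protein signalling, was the member that fell (−1.33, SE 0.13, adjusted p = 0.000371). It read 2332.4, 2041.2, 3732.1 and 2371.5 without PDGF and 657.3, 691.6, 2063.4 and 1062.9 with it, and the UO126 array with PDGF overlapped the arrays without.

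Among secreted growth factors, cytokines and chemokines 7 of 25 rose and 1, Angptl4, fell. Ereg, an EGF receptor ligand, read 92.7, 46.1, 71.2 and 105.4 without PDGF and 1248.5, 1021.6, 502.1 and 1538.8 with it (3.25, SE 0.189). Hbegf, a ligand of the same receptor, read 166.8, 208.6, 179.9 and 243.6, then 2071.6, 1215.6, 843.6 and 2620 (2.79, SE 0.202). Both had their lowest stimulated signal on UO126, and neither gene's groups overlapped. The chemokine gene Ccl7 read 63.4, 6.7, 42.7 and 15.5 without PDGF and 804.4, 134, 797.4 and 999.2 with it (3.24, SE 0.308). Its neighbour on the chromosome, Ccl2, which attracts monocytes, read 23.4, 80.5, 24 and 70.4, then 665.7, 208.8, 493.3 and 936.6 (2.79, SE 0.343). For both chemokines the lowest stimulated array was the one with SU6656, and the call for Ccl2 was lost without the variance trend in limma. Of 16 NF-kappaB pathway genes 2, Ptgs2 and Bcl3, rose (12.5%, against 2.47% of all genes). Ptgs2, the inducible cyclooxygenase, had log2 differences of 3.67, 3.27, 3.68 and 3.31 in the 4 pairs (3.48, SE 0.0987). Bcl3, a nuclear IkappaB protein, was uneven, with signals of 51.4, 56.3, 42.5 and 73.4 and then 416.6, 64.6, 368 and 238.4 (1.62, SE 0.359, adjusted p = 0.0436). Its SU6656 array with PDGF stayed within the unstimulated range, and the call was lost without the vehicle, UO126 or LY294002 pair (log2 1.32 to 1.70).

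Together these lists of early response genes held 103 of the genes tested, of which 49 rose (47.6%) and 2 fell (1.94%). The remaining 9116 genes held 179 that rose (1.96%) and 74 that fell (0.812%). Most genes called in either direction therefore lay outside the classic lists; the lists themselves were drawn up with early PDGF targets in mind, so their share of calls is no independent result. Among the outside genes 51 rises and 8 falls were at least 2-fold. In 124 and 48 the arrays did not overlap, as in 2.83% (upward) and 5.63% (downward) of all 9219 genes, called or not.

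**Figure D2:**
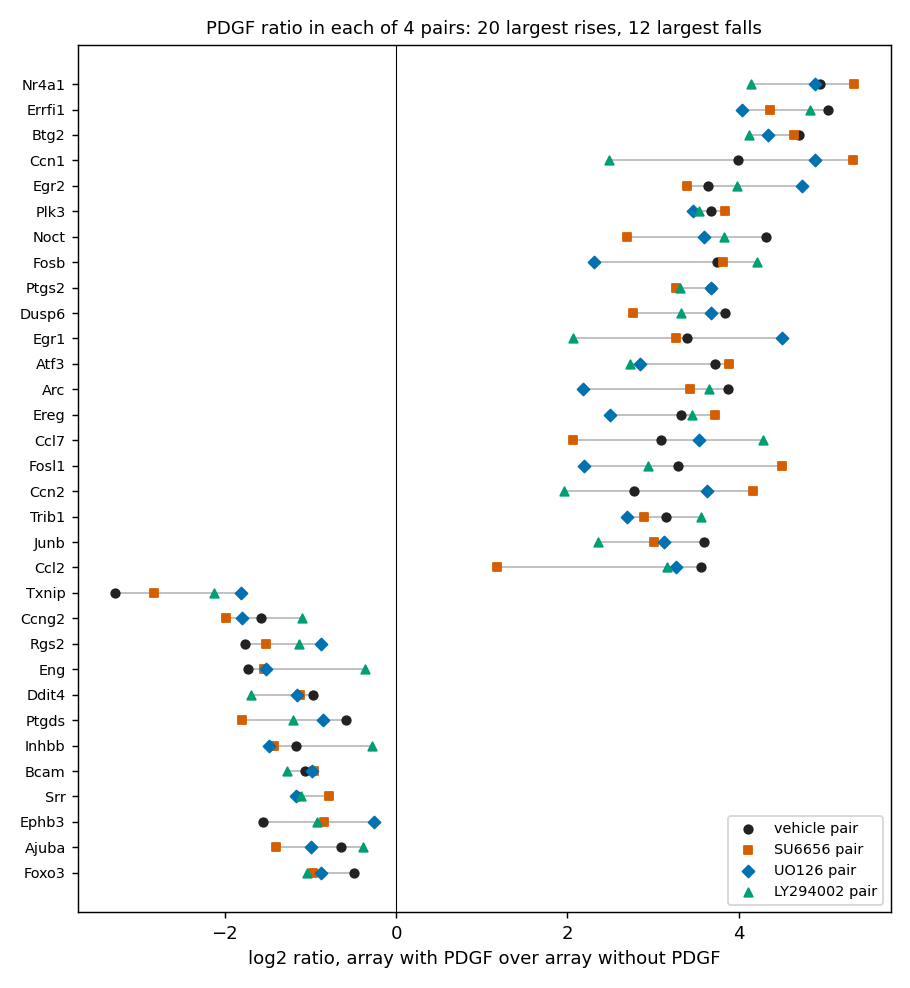
Ratio of the array with PDGF over its partner without (log2, horizontal axis) in each of the 4 pairs, for the 20 genes with the largest rise and the 12 with the largest fall. Grey lines span the 4 pairs. Btg2 spans 4.12 to 4.70 and Ccn1 2.49 to 5.33; every point lies on 1 side of 0.

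The largest rise outside those lists was that of Ccn1, a matricellular protein that binds integrins. It read 393.2, 146.4, 215.5 and 1368.9 without PDGF and 6655.8, 6996.3, 7492.4 and 7926.8 with it (4.18, SE 0.36, adjusted p = 0.000159). The stimulated signals were alike, while the unstimulated ones differed, highest with LY294002 and lowest with SU6656. Ccn2, its close relative, had the same arrangement, from 675.5, 204.3, 456.9 and 2033.2 to 4875.5, 4160.4, 6152.9 and 8226.1 (3.13, SE 0.281). Both belong to a list of SRF and MRTF targets, in which 12 of 25 rose and none fell (median 0.36). Thbs1, which encodes thrombospondin, rose evenly from 795.3, 691, 829.6 and 945.5 to 3535, 2355.6, 3840.4 and 3154.1 (1.90, SE 0.0936). Among the others the muscle-associated repeat protein Ankrd1 rose by 1.26, the adhesion proteins Zyx by 0.41 and Vcl by 0.36, and gamma actin, Actg1, by 0.28.

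Plk3, a stress-linked polo-like kinase, was close to the floor without PDGF at 14.3, 10.2, 7.9 and 10.4 units. With PDGF it read 610.2, 604, 420.4 and 519.5 (3.63, SE 0.186, adjusted p = 7.56e-06). Noct, a circadian phosphatase that acts on nicotinamide cofactors, went from 115.4, 158.4, 151.9 and 144.6 to 2976.1, 1181.7, 2107.2 and 2542.8 (3.61, SE 0.213). Neither gene's arrays overlapped. Sgk1, a kinase downstream of PI3K, read 859.9, 561.4, 547.5 and 1455.7, then 6922.6, 4202.7, 3233 and 6592.2 (2.58, SE 0.123). Epha2, a receptor tyrosine kinase for ephrins, went from 24.7, 15.5, 26.3 and 121 to 402, 327.1, 285.3 and 643.6 (2.60, SE 0.198). For both of them the log2 difference was smallest in the LY294002 pair, where the unstimulated signal was highest. The prostaglandin receptor gene Ptger4 rose by 2.08 and tissue factor, F3, which starts blood clotting, by 1.93. Outside every list, Nppb, a natriuretic peptide, rose by 1.91 and the neurotrophin Bdnf by 1.32. These 2 were picked after their values were seen.

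Gdnf, a neurotrophic ligand of the RET receptor, rose in the fit (2.24, SE 0.413, adjusted p = 0.0172) but not to a like degree on every background. It read 27.2, 18.3, 22.8 and 25.4 without PDGF and 454.2, 31.1, 369.7 and 366.1 with it. On SU6656 the stimulated signal was thus about as low as the unstimulated ones. The call was lost without the vehicle, UO126 or LY294002 pair, where the effect was 1.99 to 2.07.

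Sterol synthesis and uptake was the metabolic list with the most calls: 11 of 23 members rose and none fell, by smaller amounts (median 0.27). Hmgcs1, an early enzyme of the pathway, read 11424.9, 3175.2, 12854.7 and 6875.5 without PDGF and 20098.2, 8715.2, 19116.1 and 14442.9 with it (0.97, SE 0.109, adjusted p = 0.000915). Its level was lowest on SU6656 whether or not PDGF was present, so the groups overlapped while every pair moved the same way. The sterol carrier Stard4 rose, with log2 differences of 0.94, 0.94, 0.94 and 0.62 in the 4 pairs and overlapping signals of 381.5 to 852.8 and 745.8 to 1676.7. Msmo1, an oxidase of the pathway, rose by 0.66, the isomerase Idi1 by 0.65 and the epoxidase Sqle by 0.36. Hmgcs1, Stard4, Msmo1 and the kinase Pmvk (0.84) lost their calls when the pair was not a block, and Hmgcs1 and Msmo1 also without the variance trend.

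Other lists held fewer rises, to be read against 2.47% up and 0.824% down of all genes. In the list of heat shock and unfolded protein response genes 5 of 30 rose, led by the co-chaperones Dnajb1 (1.89) and Dnajb4 (1.80), and 1, the stress factor Atf4, fell (−0.42). Dnajb1 read 1237.5, 1306.1, 1105.5 and 1572.4 without PDGF and 7610.2, 5352, 1982.7 and 7577.7 with it, lowest on UO126. The calls for Dnajb1 and Per1 were lost without the variance trend. Of 20 genes for AU-rich element binding and mRNA decay 4 rose and 1 fell, and Zfp36l1 (1.53), which promotes decay of short-lived mRNAs, followed Btg2. Of 18 circadian clock genes 4 rose, among them the repressor Per1 (1.06). Of 28 matrix, integrin and protease genes 6 rose and 1 fell, and of 38 zinc finger and homeobox regulators 6 rose, including Runx1 (1.12) and Sox9 (0.82). Of 19 p53 target genes 4 rose, among them Plk2 (0.75), and 2 fell. Of 24 ubiquitin pathway genes 2 rose. The same number rose among 20 SR protein and CLK genes and among 18 genes of glucose transport and glycolysis. Of 23 solute carriers the phosphate transporter Slc20a1 rose by 1.47 and the glycine transporter Slc6a9 fell by 0.35, a call lost whichever pair was left out, under median scaling (−0.20) and under other settings. No gene passed the threshold among 33 ribosome biogenesis genes, 29 cell cycle genes, 13 interferon response genes or 12 housekeeping genes. The nucleolar gene Rrs1 had the smallest p of the first of these lists, with 0.50 (adjusted p = 0.116), and the replication gene Mcm7 of the second, with −0.39 (adjusted p = 0.12).

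**Figure D3:**
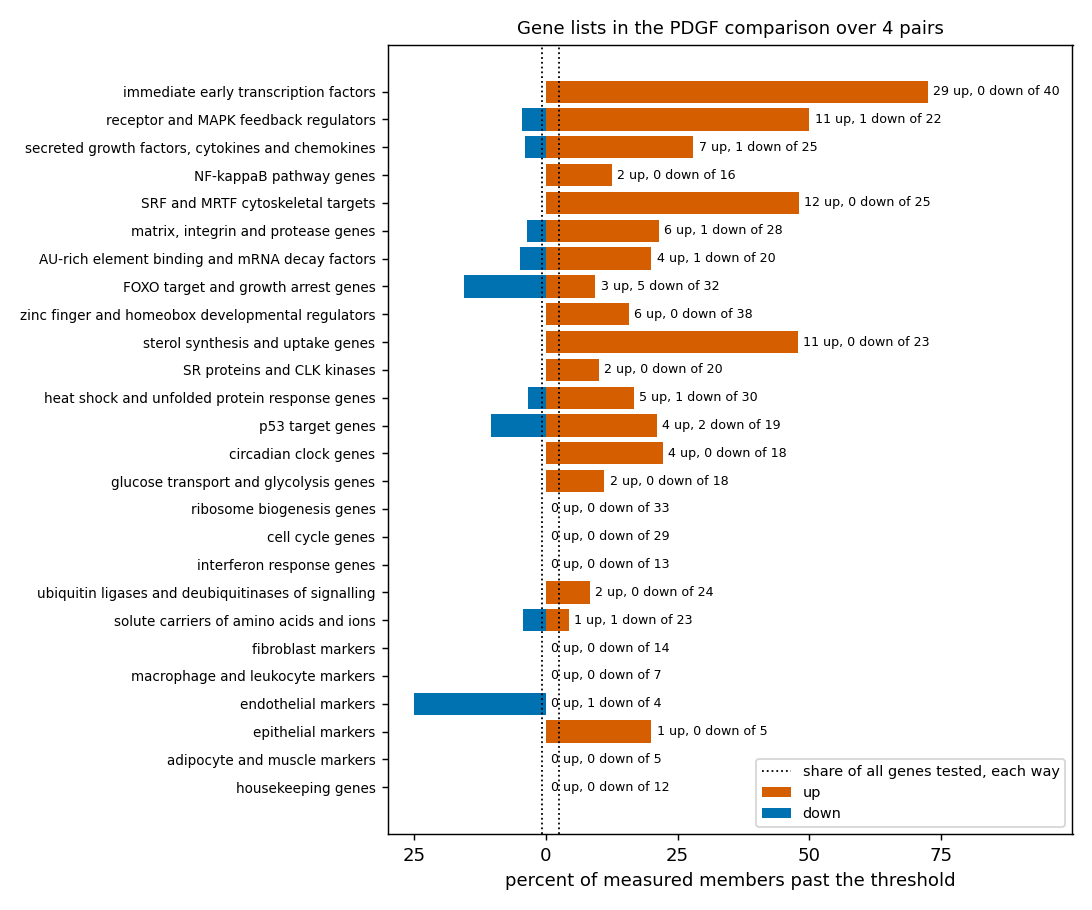
Share of the measured members of each of the gene lists shown that rose (to the right) or fell (to the left) with PDGF, in percent, with the counts beside each bar. Dotted lines mark the shares over all genes tested, 2.47% up and 0.824% down. Immediate early transcription factors stand highest at 72.5%.

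The 8-array design is the larger, and 2895 of the genes tested on it are listed by no probe set of the 9-array design. Of these 39 rose (1.35%) and 18 fell (0.622%), against 189 (2.99%) and 58 (0.917%) of the 6324 genes that both designs list. In 28 of the 39 and 12 of the 18 the arrays did not overlap, as in 1.97% (upward) and 7.12% (downward) of all 2895, and 12 and 2 changed at least 2-fold. Of these, 32 of the rises and all 18 falls were also outside the early response lists. The largest was Arc, a cytoskeleton-associated protein known from synapses. It read 16.4, 13.7, 17.2 and 27.7 without PDGF, near the floor, and 737.9, 475.6, 177.4 and 797.1 with it (3.28, SE 0.276, adjusted p = 0.000139). The UO126 array was the lowest of the stimulated 4, yet above all unstimulated ones. Trib1, a pseudokinase that links substrates to a ubiquitin ligase, went from 29.4, 35.5, 40.8 and 23.3 to 542.2, 474.6, 406.2 and 696.4 (3.07, SE 0.192). Its relative Trib2 rose by less (1.14, SE 0.237, adjusted p = 0.0325), its arrays overlapped, and its call was lost without the vehicle, SU6656 or UO126 pair. Spry2, an inhibitor of Ras and ERK signalling by growth factor receptors, read 355, 182.8, 159.8 and 492.3, then 2074.1, 1547.9, 1419 and 1809.7 (2.53, SE 0.175). Every stimulated array was above every unstimulated one at this probe set; a second gave 0.28.

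Tnfrsf12a, the receptor for the cytokine TWEAK, was among the brightest of the genes that rose. It read 3237.8, 4442.7, 2189.5 and 6158.5 without PDGF and 14248.4, 15897, 11759.5 and 16146.6 with it (1.94, SE 0.129, adjusted p = 3.55e-05). Ier5, an immediate early gene, read 299.2, 288.3, 419.8 and 409.2, then 1670.3, 1143.6, 866.2 and 2166.4 (1.89, SE 0.199). The zinc finger factor Egr3 rose by 1.36, from 215.5 to 338.5 units without PDGF to between 509 and 911.5 with it. In both Ier5 and Egr3 the smallest log2 difference, 1.00 and 0.59, was that of the UO126 pair, and Egr3 lost its call without the variance trend. Fam43a (1.35), Cttnbp2nl (1.25), Nrbf2 (1.14), Nup98 (0.99) and Lbh (0.95) rose as well, Lbh with a call lost without the variance trend. Vasn, a membrane protein that binds TGF-beta, was the most even of all genes changed at least 2-fold. Its signals of 1758.4, 1707.2, 1672.4 and 2079 became 4106.2, 3743.1, 3771.8 and 4845.1, log2 differences of 1.16, 1.05, 1.10 and 1.17 (1.12, SE 0.0606, adjusted p = 1.02e-05). Nup98, Trpd52l3 (1.09) and Zfp948 (0.89) lost their calls when some pairs were left out, the latter 2 whichever pair it was. Among the falls, Srr, the enzyme that makes D-serine, read 454.9, 688.9, 563.9 and 527.4 without PDGF and 174.3, 381.1, 217.3 and 217.6 with it (−1.06, SE 0.12, adjusted p = 0.000983), although 1 of its 3 probe sets passed the threshold and they ran from −1.06 to 0.07. The laminin receptor Bcam read 98.3, 146, 169.8 and 173.9, then 26.8, 51.5, 56.2 and 48.9 (−1.07, SE 0.226, adjusted p = 0.0355). The groups were apart for both, but the call for Bcam, a dim gene, was lost whichever pair was left out (−1.11 to −0.99). Trp53inp1, a target of p53, fell by 0.70 with log2 differences of −0.76, −0.74, −0.78 and −0.51. Ajuba (−0.86), Oxa1l (−0.71), Abtb1 (−0.71), Gprc5b (−0.65), Purg (−0.61), Foxj3 (−0.56) and Numbl (−0.55) were the other falls of 10 named, and each lost its call without at least 3 of the pairs in turn.

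**Figure D4:**
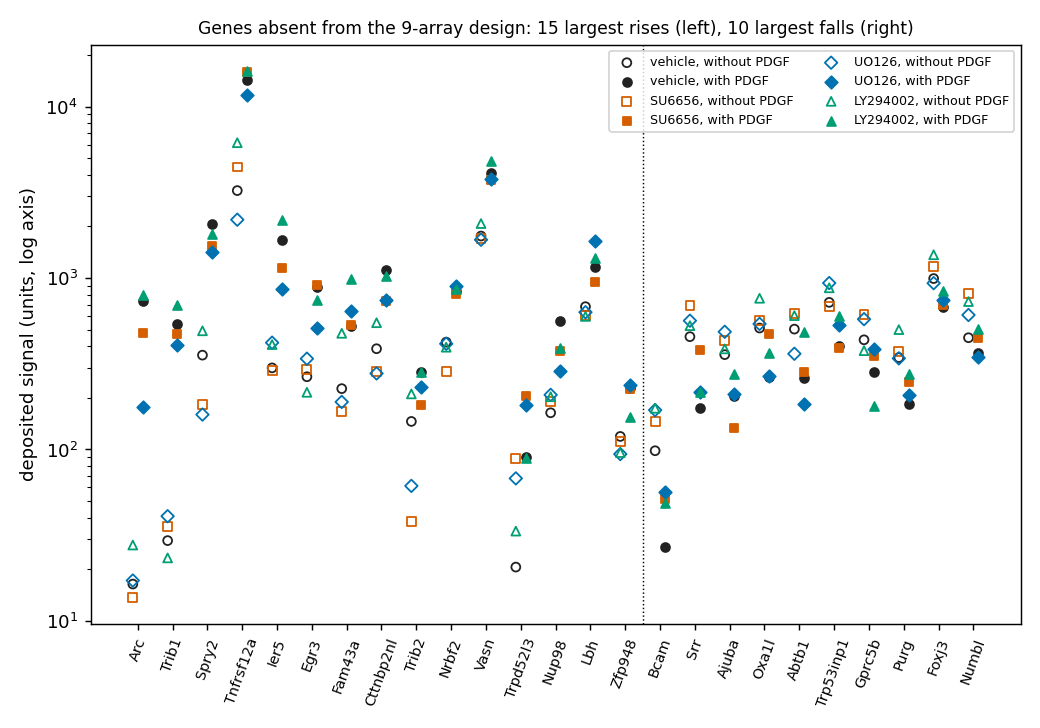
Deposited signal (log axis) on each of the 8 arrays for genes that no probe set of the 9-array design lists: 15 rises to the left of the dotted line and 10 falls to the right. Open symbols are arrays without PDGF, filled ones with it. Arc and Trib1 start below 41 units without PDGF and reach up to 797.1 and 696.4.

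Promoter sequence was read for the genes that moved together. RefSeq promoter windows of 300 bases (250 before the annotated start and 50 after it; assembly GRCm38.p6) were matched to 184 of the 228 genes that rose and 60 of the 76 that fell. Both strands were searched for each motif named here. A gene counted as holding a motif if any of its windows did, and there were 32851 windows for 27025 genes. The cyclic AMP response element (CRE), TGACGTCA, was found in 5.98% of the genes that rose and in 1.67% of the 60 that fell. It was found in 3.43% of the 7483 tested genes with a window and in 2.03% of all 27025. The EGR factor motif, GCGNGGGCG, was in 19% of the genes that rose against 12% of those tested, 6.27% of all and 16.7% of the genes that fell. The CArG box, bound by SRF and searched by its usual pattern, was in 5.43%, 1.63%, 1.81% and 1.67% of these sets, in the same order. The AP-1 motif, written TGACTCA, was in 9.24%, 4.97%, 5.95% and 3.33%. The GC box, the letters GGGCGG and able to overlap the EGR motif, was in 80.4%, 67.6%, 38.2% and 76.7%. The E-box, spelled CACGTG here, was in 16.3%, 11.8%, 8.09% and 13.3%, and the TATA box, searched as TATAAA alone, in 13.6%, 9.89%, 15.7% and 15%. The FOXO motif, taken as GTAAACA in this search, was in 3.26% of the genes that rose, 3.05% of those tested, 4.05% of all and 5% of the genes that fell. For the EGR motif, the GC box, the E-box and the TATA box the shares of the rising and the falling genes were thus near each other and above those tested. Among the 68 genes with a window that rose at least 2-fold the CRE was in 10.3% (7 genes), AP-1 in 5.88% (4) and the CArG box in 2.94% (2). Some shares rest on few genes: of those that fell, 1 held the CRE, 1 the CArG box and 3 the FOXO motif. These shares are descriptions with no test, and a match is not a site in use.

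The 7 genes that rose at least 2-fold and hold the CRE are shown because they include the transcripts of Errfi1 and Btg2. They were picked after the effects were known. Each line gives up to 60 bases on the strand of the gene, 5′ to 3′, with the CRE in capitals.
Errfi1, chr4:150854993-150855052, plus strand: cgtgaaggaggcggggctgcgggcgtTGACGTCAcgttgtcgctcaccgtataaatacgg
Btg2, chr1:134079288-134079347, minus strand: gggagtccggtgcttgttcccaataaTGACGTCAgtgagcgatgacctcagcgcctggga
Epha2, chr4:141301162-141301220, plus strand: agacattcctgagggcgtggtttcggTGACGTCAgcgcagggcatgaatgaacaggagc
Maff, chr15:79347465-79347519, plus strand: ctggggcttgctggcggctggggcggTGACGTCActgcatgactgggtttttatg
Rcan1, chr16:92400220-92400279, minus strand: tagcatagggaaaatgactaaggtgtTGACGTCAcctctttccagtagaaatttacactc
Dusp1, chr17:26508582-26508641, minus strand: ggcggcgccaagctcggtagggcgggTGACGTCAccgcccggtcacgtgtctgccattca
Wsb1, chr11:79254700-79254759, minus strand: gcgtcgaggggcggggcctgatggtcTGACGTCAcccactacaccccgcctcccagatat

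Counted from the annotated start, the first base of the CRE lies at −51 in Errfi1, −33 in Epha2, −29 in Maff and −38 in Wsb1, and farther out at −166 in Btg2, −175 in Rcan1 and −143 in Dusp1. The effects of these genes were 4.57 for Errfi1, 4.45 for Btg2, 2.60 for Epha2, 2.16 for Maff, 1.20 for Rcan1, 1.18 for Dusp1 and 1.06 for Wsb1.

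Of the genes absent from the smaller design, the 250 bases before the start of Tnfrsf12a and Ier5 are shown because both hold matches, in capitals. The windows of Spry2, Fam43a and Bcam, the others chosen by size of change among genes with a window, held no match to these letters in their 250 bases. Arc, Trib1 and Egr3 rose by more than Fam43a but had no window among those searched.
Tnfrsf12a, chr17:23677450-23677699, minus strand: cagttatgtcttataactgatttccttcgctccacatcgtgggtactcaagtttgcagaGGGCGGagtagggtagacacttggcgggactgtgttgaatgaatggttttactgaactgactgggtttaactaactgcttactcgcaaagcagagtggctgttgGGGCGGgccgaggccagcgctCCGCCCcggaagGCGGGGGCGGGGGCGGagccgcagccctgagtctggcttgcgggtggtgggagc
Ier5, chr1:155099637-155099886, minus strand: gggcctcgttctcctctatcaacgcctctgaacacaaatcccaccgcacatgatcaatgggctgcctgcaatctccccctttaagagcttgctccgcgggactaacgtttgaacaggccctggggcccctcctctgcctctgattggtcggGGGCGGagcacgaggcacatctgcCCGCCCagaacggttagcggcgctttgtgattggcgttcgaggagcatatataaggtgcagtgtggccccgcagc

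In Tnfrsf12a overlapping EGR matches begin at −54 and −48, and GC boxes at −191, −87, −66, −50 and −44. In Ier5 the GC boxes begin at −99 and −75.

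Few of the genes called lie next to each other. Of 4675 pairs of neighbouring genes with both tested, 5 pairs rose together: Nrbf2 (1.14) with Egr2 (3.94), Ccl2 with Ccl7 (2.79 and 3.24), Klf10 (0.93) with Azin1 (0.68), Egr1 with Etf1 (3.31 and 0.49) and the metallothionein genes Mt2 and Mt1 (0.44 and 0.50). Probes of the latter 2 may share transcripts, since these genes are near copies. No neighbouring pair fell together, and Prdx2 (−0.31) beside Junb (3.03) was the pair that went opposite ways.

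Falls were fewer and smaller. FOXO targets and growth arrest genes were the list with the most, 5 down and 3 up of 32 measured (median −0.17). These shares were 15.6% down and 9.38% up, against 0.824% and 2.47% of all genes. Txnip, an inhibitor of thioredoxin and of glucose uptake, read 2789.8, 2695.1, 2090.9 and 4725.4 without PDGF and 255.6, 348.6, 575.2 and 1060.1 with it. It fell by 2.51 on the log2 scale (SE 0.201, adjusted p = 0.0001), and the stimulated arrays were all below the others. Ccng2, a cyclin linked to growth arrest, went from 617.7, 556.2, 612.5 and 780.2 to 175, 107.7, 137.6 and 336.2 (−1.62, SE 0.155). Txnip and Ccng2 were the 2 genes at least 2-fold lower in every pair. Ddit4, an inhibitor of mTOR, read 1741.4, 1701.6, 2266.2 and 1033.8, then 878.7, 773, 1030.2 and 288 (−1.24, SE 0.116, adjusted p = 0.000292), a call lost when the pair was not a block. The transcription factor Foxo3 itself fell by 0.85 and Sesn1, a sestrin, by 0.71. The members that rose were Cited2 (1.14), a coactivator-binding protein, the cell cycle inhibitor Cdkn1a (0.80) and Gadd45b (1.00); the call for Cdkn1a was lost without the variance trend. Outside that list, Inhbb, a subunit of activin, read 227.5, 209.7, 257.6 and 223 without PDGF and 74.2, 50.3, 59 and 171.3 with it (−1.09, adjusted p = 0.0363). Ptgds, a prostaglandin synthase, fell by 1.11 and Ephb3, an ephrin receptor, by 0.89. The calls for Inhbb and Ephb3 were lost on leaving out 1 of 3 of the pairs, and that for Ptgds on leaving out the LY294002 pair.

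Eng, a TGF-beta coreceptor that served as an endothelial marker, fell by 1.29 (SE 0.24, adjusted p = 0.018), from 218.5, 381.5, 296.8 and 210.2 to 37.2, 101.2, 69.4 and 150.5. It was the only member of 4 measured endothelial markers that was called, and the call was lost without the vehicle, SU6656 or UO126 pair. The summed signal of all 10 endothelial markers was 1039.8 to 1161.1 without PDGF and 704.2 to 921.5 with it, with Vwf at 1.9 to 4.9 units throughout. Cldn3, a tight junction gene among 5 measured epithelial markers, rose by 1.42 (adjusted p = 0.0215) with overlapping arrays, a call lost without the vehicle, UO126 or LY294002 pair. The summed signal of 12 epithelial markers was 2216.4 to 2739.5 without PDGF and 2233.9 to 2773.5 with it. No member of the leukocyte or of the adipocyte and muscle lists was called, of 7 and 5 measured. Whether other cells had a part in the change of Eng or Cldn3 was not tested.

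How far the 4 backgrounds resembled each other was described without a test, since each condition has 1 array. Over the 228 genes that rose, the median log2 difference was 0.87 in the vehicle pair, 0.81 with SU6656, 0.85 with UO126 and 0.68 with LY294002. The LY294002 pair gave the smallest of the 4 differences for 87 of the 228 and the vehicle pair for 22. Over the 89 genes up at least 2-fold, the largest log2 difference was in the vehicle pair for 35, in the UO126 pair for 27, in the SU6656 pair for 16 and in the LY294002 pair for 11. The range over the pairs was 0.58 at the median of the genes that rose, 0.37 of those that fell and 0.54 of all genes. The fit calls a gene more readily where its pairs differ little, most of all where the effect is small. These medians were therefore shaped by the call and do not show how alike the backgrounds were. The median range was 0.90 for the 89, and 36 of them had a range over 1. The widest were Ccn1 (2.84), Gdnf (2.59), Egr1 (2.43), Ccl2 (2.38), Bcl3 (2.34), Fosl1 (2.33), Ccl7 (2.23) and Ccn2 (2.21). In Ccn1, Ccn2 and Egr1 the smallest difference was with LY294002, in Gdnf, Ccl2, Bcl3 and Ccl7 with SU6656, and in Fosl1 with UO126. Egr1 read 522.7, 355, 266.5 and 1738.4 without PDGF and 5825.5, 3776.7, 6927.9 and 7604.7 with it, so the LY294002 pair began from the highest level. Fosl1 began from 29.6 on SU6656 against 156.1 to 174.8 on the others. The narrowest were Vasn (0.12), the tubulin gene Tubb6 (0.20), Bcam (0.30), the syndecan gene Sdc4 (0.32) and Nfil3 (0.36), a repressor that read 154.1 to 291.7 without PDGF and 640 to 977.1 with it.

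Each pair was also left out in turn, and the genes called in the other 3 were read in the pair that had no part in calling them. Without the vehicle pair 133 genes rose (1.44%) and 26 fell (0.282%). In the vehicle pair 129 of the 133 had the same sign, 75 of them at least 2-fold (median 1.16), and so had 23 of the 26, of which 4 were at least 2-fold (median −0.39, against −0.71 in the other pairs). Without the SU6656 pair 158 rose (1.71%) and 33 fell (0.358%), and in that pair 153 and 31 had the same sign (66 and 5 at least 2-fold; medians 0.91 and −0.51). Without the UO126 pair 172 rose (1.87%) and 41 fell (0.445%), and 168 and 33 had the same sign (79 and 4 at least 2-fold; medians 0.92 and −0.39). Without the LY294002 pair 162 rose (1.76%) and 35 fell (0.38%), and 158 and 33 had the same sign (69 and 7 at least 2-fold; medians 0.87 and −0.36). Over all genes 42.2% to 45.0% were above 0 in a pair. Among the exceptions, which are named after their values were seen, Mdm2 and Hmox1 were called up in the other pairs and were not above 0 with UO126, and Mef2c likewise with LY294002.

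Of the genes that rose, 186 could be read in the 9-array table, where the PDGF effect was taken over the 4 pairs of those experiments. Those pairs were untreated, UO126 and PD98059, the other inhibitor used there, of the MEK experiment, and vehicle of the repeat. None of them had SU6656 or LY294002, and the labels of the MEK experiment give no time with PDGF. The sign was the same for 172 of the 186, with a median of 0.54 there and 0.81 here. Of the 5531 genes measured in both tables, 42.1% were above 0 in the 9-array table. Of 54 genes that fell 47 had the same sign, with medians of −0.22 and −0.51. Of 82 genes changed at least 2-fold here, 61 changed at least 2-fold the same way there, and 15 were under 0.5 in that direction. Nr4a1 (3.83), Egr2 (4.06), Dusp6 (4.03) and Ccl2 (3.73) were large there too. Plk3 was 3.63 here and 0.43 there, and Maff was 2.16 and 0.10. The levels of Plk3 also differed, at 3200.5 to 5361 units on the arrays there without an inhibitor and 7.9 to 610.2 on the 8 arrays here. Maff read 51.8 to 134.8 units on those arrays without an inhibitor. Noct was 3.61 here and −0.05 at its brightest probe set there, but its 3 probe sets on that design ran from −0.05 to 3.41. Sdc4 (1.08 and −0.15), Tubb6 (1.10 and 0.19), Slc2a1 (1.12 and 0.38), Wsb1 (1.06 and 0.45), Ptgds (−1.11 and 0.01) and Eng (−1.29 and −0.35) were others of the 15. The tables were normalised separately, and the probe sets and backgrounds differ, so these differences were not tested.

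**Figure D5:**
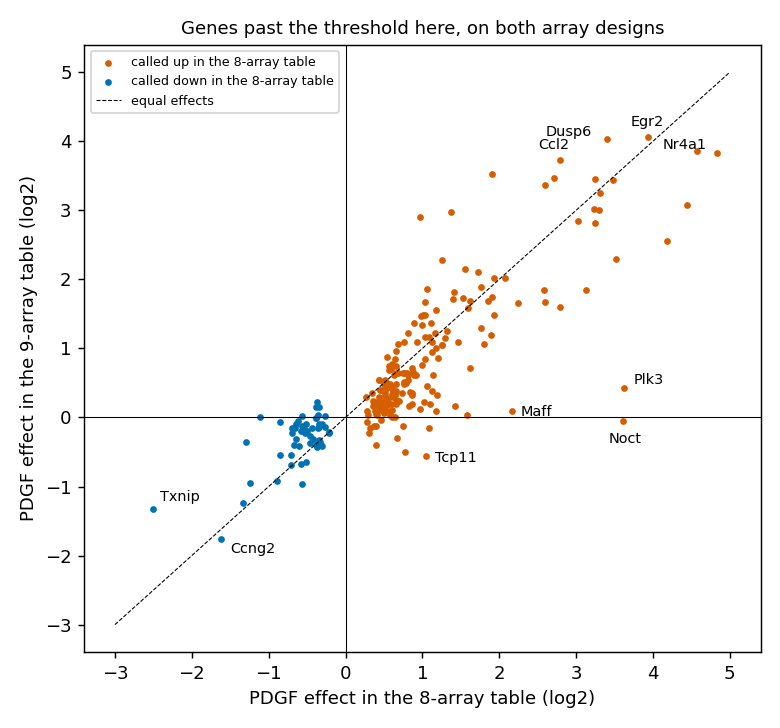
PDGF effect in the 9-array table (log2, vertical axis) against that in the 8-array table (log2, horizontal axis), for the 186 genes that rose here (orange) and the 54 that fell (blue) and were measured in both. The dashed line marks equal effects. Plk3, Noct and Maff lie far below it, at 0.43, −0.05 and 0.10 in the 9-array table.

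Probe sets of 1 gene mostly moved together among the genes that rose, and less so among those that fell. Of 125 genes that rose and had several probe sets bright enough to test, 121 had them all of the same sign and 61 had them all past the threshold. Of 46 such genes that fell, 32 had all of the same sign and 8 all past it. For Btg2 the 2 probe sets gave 4.02 and 4.45, for Ccn1 3.92 and 4.18, and for Ccng2 −1.62 and −1.29. Others disagreed: Spry2 had 0.28 and 2.53, Inhbb −1.09 and −0.06, Foxo3 −0.85 and −0.10, and Sdc4 0.16 and 1.08. Trib2 had 0.31 and 1.14 and Lbh 0.95 and 2.37, while Ier5 ran from 0.70 to 3.00 and Gadd45b from 0.07 to 1.21. The signs differed for Srr (−1.06 to 0.07), Runx1 (−0.42 to 1.12), Ptgds (−1.11 and 0.26), Oxa1l (−0.71 and 0.17) and Prdx2 (−0.31 and 0.11), each with 1 probe set past the threshold. Another 64 genes had a probe set past the threshold that was not their brightest, and they are not counted above.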

How the data were processed

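Total RNA of NIH 3T3 cells was measured on 8 oligonucleotide arrays, with 1 array per condition, grouped by their labels. The authors deposited intensity values, 1 linear number per probe set and array, with a common level on every array (mean 496.3 to 496.6 units after trimming 2% at each end, controls left out). The software behind them is not given in the sources used here. Values were quantile normalised, transformed as log2(value + 36.3), and filtered by leaving out control probe sets and the lowest 30% by mean. The model was limma's (version 3.58.1, R 4.3.3; lmFit, eBayes with a trend; pair as a block, 3 residual degrees of freedom; adjusted p threshold 0.05), a procedure tested on simulated data. The number of arrays limits the precision. Gene names came from the platform annotation, updated through Entrez IDs with a RefSeq table (20364 of 22690 probe sets), and unnamed probe sets are not reported as genes.

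The comparison, the gene lists and the alternatives were chosen with earlier results of these data known. Genes named were the 20 largest rises and 12 largest falls, 15 and 10 of these kinds absent from the 9-array design, 12 rises outside the early lists, the 8 widest and 5 narrowest over pairs, and up to 4 per list (of a list with none past the threshold, those with the smallest p). The result of 1 gene list is not reported here. Others are counts of 5 or fewer, or were chosen after their values were seen. Alternatives changed the scaling, the added constant, the filter, the trend, the block, the probe sets and the arrays included. PDGF was added at 25 ng/ml for 1 h. Arrays were paired by their shared inhibitor, as the design gives it.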

Additional observations from a re-analysis of the deposited data

Results flagged for a closer look

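In 14 of 228 groups of 4 arrays, made of the named genes with and without PDGF, 1 array lay far from the others; about 1 in 20 groups is expected to do so by chance. Among arrays with PDGF, the SU6656 array was the lowest for Ccl7 (134 units, others 797.4 to 999.2), Gdnf (31.1, others 366.1 to 454.2) and Runx1 (340.5, others 563.5 to 576.4), and the highest for Rhoj (2191.8, others 2075.9 to 2112). The UO126 array was the lowest for Fosb (738.6, others 2132.3 to 2614.9), Foxo3 (383.2, others 544.5 to 547.9), Itga5 (936, others 1397.8 to 1460.9) and Tnfrsf12a (11759.5, others 14248.4 to 16146.6). The LY294002 array was the lowest for Srsf2 (2016, others 3993.9 to 4550.4), and the vehicle array the highest for Ets1 (1093.6, others 669.6 to 718.6). Among arrays without PDGF, the SU6656 array was the lowest for Fosl1 (29.6, others 156.1 to 174.8) and Nrbf2 (284.7, others 394.9 to 422.7), the LY294002 array the highest for Ankrd1 (391.6, others 253.3 to 269.5), and the UO126 array the highest for Ptgds (570.1, others 268.5 to 295.7). With 1 array per condition, these values have no replicate, and their cause was not tested.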

How the results depend on the processing

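No effect of a named gene changed direction under any alternative run in which it was tested. Of the 100 named genes past the threshold, 53 kept their call under every alternative that tested them. Some of the 53 were not tested under all alternatives. Arc, Plk3 and Trib1, for example, were filtered out when the lowest part by mean was left out more strictly. The reported counts of rises and falls were 396 and 129 probe sets, 39 and 18 genes absent from the 9-array design, and 179 and 74 genes outside the early lists. With median scaling the falls were 65, 11 and 40, and 274 outside genes rose. With no filter the falls were 66, 6 and 38. Without the variance trend the rises were 164, 19 and 57 and the falls 20, 3 and 13. With no replicate block, which ignores the pairing, they were 217, 21 and 93 up and 27, 6 and 17 down. With probe sets that match several transcripts left out, 247 probe sets rose. Leaving out 1 array gave 223 to 311 probe sets up and 37 to 76 down, 24 to 29 absent genes up and 5 to 9 down, and 93 to 131 outside genes up and 22 to 41 down. Leaving out 1 array also removes what its partner adds. Without the vehicle pair the rises were 224, 24 and 94 and the falls 40, 6 and 25. Without the SU6656 pair 117 outside genes rose, and the falls were 61, 6 and 32. The falls were 75, 8 and 40 without the UO126 pair and 56, 6 and 34 without the LY294002 pair. Named genes lost their call in 42 cases without the trend (Ccl2, Dnajb1 and Egr3 among them), 29 with no block and 25 with no filter. The pair-wise losses touched 32 named genes, and 27 of 28 named genes changed at least 4-fold kept their call whichever pair was left out, Gdnf being the exception. The cause of these changes was not tested. Runs that leave out arrays have fewer of them, and the run with no filter tests more probe sets. Signals near the 36.3 units added limit the effects of dim genes.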
